A study of Homo sapiens with 6 samples.

Results

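The proteasome genes described here are the rows of the count table whose symbol is PSMA, PSMB, PSMC, PSMD, PSME, PSMF or PSMG followed by a number, together with POMP, with antisense symbols left out. This gave 49 genes of 27469. They were measured by RNA sequencing of transcript 3' ends in 3 libraries of HMC3 cells given IL-33 for 24 h and in 3 Control libraries of the same line. HMC3 cells descend from human microglia and grow without limit because they carry SV40 large T antigen, IL-33 is an alarm cytokine related to interleukin-1, and the labels give neither a dose of IL-33 nor what the Control cells received. The labels do not say whether libraries of a group are separate cultures, and the p-values cover only library-to-library spread, which may be technical.

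The proteasome degrades proteins tagged with ubiquitin. Its barrel-shaped core particle is a stack of outer alpha rings and inner beta rings, and 3 kinds of beta subunit, encoded by PSMB5, PSMB6 and PSMB7, cut the substrate. In cells of the immune system, and in other cells exposed to interferon-gamma, the counterparts PSMB8, PSMB9 and PSMB10 replace them in newly built particles, which shifts the peptides made for HLA class I molecules. The regulatory particle, with ATPases (PSMC) and non-ATPase subunits (PSMD), recognises and unfolds substrates, while the PSME proteins are alternative caps and PSMF1 binds the core as an inhibitor in vitro. Assembly needs dedicated chaperones, and when proteasome activity drops the transcription factor NFE2L1 raises the genes of the constitutive particle together through antioxidant response elements in their promoters.

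None of the listed markers of microglia, from which HMC3 descends, had enough counts to be tested between the groups. Library totals ran from 8294747 to 10217529 counts with IL-33 and from 5739947 to 9933395 in Control. Of 8 microglia markers, 6 had 0 counts in all 6 libraries (TYROBP, SPI1, CX3CR1, TMEM119, P2RY12 and ITGAM) and the list summed to 0.0977 to 1.49 CPM with IL-33 and 0 to 1.45 CPM in Control (CPM, read counts scaled by library size and TMM factor, where 3 counts correspond to 0.293 to 0.543 CPM). The 8 fibroblast and mesenchymal markers, such as FN1 and VIM, summed to between 7387 and 7754 CPM with IL-33 and between 6975 and 8052 CPM in Control. COL3A1 and ACTA2 of that list had 0 counts. The 4 lymphocyte markers had 0 counts, the 3 endothelial markers summed to at most 1.71 CPM and the 4 astrocyte markers to at most 2.71 CPM. The 4 epithelial markers summed to 594 to 642 CPM with IL-33 and 594 to 731 CPM in Control, nearly all of it KRT18. The library Control 3, the shallowest, stood apart at 55 on the first principal component, which held 35.4% of the variance, against -18 to 0.864 for the other 5 libraries, so results are also given without it.

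The promoters of the immune subunits and of PSMB5, the constitutive counterpart of PSMB8, are printed first because the comparison of immune with constitutive subunits turns on these genes. Sequences are RefSeq's on GRCh38.p14, read 5′ to 3′ on the gene's strand from 250 bases before to 50 bases after the start. Capitals mark matches on either strand to 3 letter patterns, namely the interferon-stimulated response element (GAAA, then 2 bases of any kind, then GAAA), the gamma-activated site (TTCNNNGAA) and the antioxidant response element (TGACNNNGC). For PSMB8 and PSMB5, which have more than 1 listed start, the start with the most matches is shown.
PSMB8 promoter (chr6:32843998-32844297, - strand): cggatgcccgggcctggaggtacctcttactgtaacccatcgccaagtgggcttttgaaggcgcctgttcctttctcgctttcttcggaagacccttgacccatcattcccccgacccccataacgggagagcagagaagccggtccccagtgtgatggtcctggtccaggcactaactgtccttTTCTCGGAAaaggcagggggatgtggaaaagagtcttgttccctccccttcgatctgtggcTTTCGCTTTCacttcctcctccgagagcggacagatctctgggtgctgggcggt
PSMB10 promoter (chr16:67936801-67937100, - strand): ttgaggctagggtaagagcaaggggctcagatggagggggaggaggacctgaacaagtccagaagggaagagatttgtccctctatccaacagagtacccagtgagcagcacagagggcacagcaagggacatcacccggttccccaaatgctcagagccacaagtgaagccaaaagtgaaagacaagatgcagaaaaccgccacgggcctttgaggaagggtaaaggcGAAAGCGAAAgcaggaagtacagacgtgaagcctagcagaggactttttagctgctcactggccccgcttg
PSMB9 promoter (chr6:32853942-32854241, + strand): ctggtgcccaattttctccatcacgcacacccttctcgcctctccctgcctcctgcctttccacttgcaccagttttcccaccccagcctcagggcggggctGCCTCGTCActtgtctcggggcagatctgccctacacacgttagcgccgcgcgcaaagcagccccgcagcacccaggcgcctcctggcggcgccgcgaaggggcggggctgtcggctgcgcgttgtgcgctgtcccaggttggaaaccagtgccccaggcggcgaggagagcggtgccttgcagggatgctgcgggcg
PSMB5 promoter (chr14:23034851-23035150, - strand): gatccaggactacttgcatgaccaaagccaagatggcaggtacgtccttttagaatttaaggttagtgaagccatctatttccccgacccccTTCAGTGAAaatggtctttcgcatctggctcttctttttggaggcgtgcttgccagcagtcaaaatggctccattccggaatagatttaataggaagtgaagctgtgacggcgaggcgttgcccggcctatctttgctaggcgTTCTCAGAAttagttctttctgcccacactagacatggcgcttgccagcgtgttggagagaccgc

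PSMB8 held 1 interferon-stimulated response element and 1 gamma-activated site. PSMB10 held an interferon-stimulated response element, PSMB9 an antioxidant response element, and PSMB5 a pair of gamma-activated sites. A match is a description of the letters and not a binding site. The interferon-stimulated pattern was found in 3.57% of all 35116 listed promoters and in 7 of 52 promoters of the 43 proteasome genes that have an entry (13.5%). The gamma-activated pattern was in 7.66% of all promoters and 15.4% of the proteasome promoters, the antioxidant pattern in 13.3% and 28.8%, and the CCAAT box (CCAAT), searched in addition, in 34.6% and 38.5%.

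Besides PSMB8 and PSMB10, the interferon-stimulated pattern lay in the promoters of PSME1 and PSME2, which encode the interferon-inducible cap, and of PSMG4, PSMA4 and PSMB4. In the 30-base windows below, capitals mark that pattern, which begins 28 bases before the start in PSME2 and 5 bases after it in PSME1.
PSME1 (chr14:24136189-24136218, + strand): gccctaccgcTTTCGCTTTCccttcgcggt
PSME2 (chr14:24146619-24146648, - strand): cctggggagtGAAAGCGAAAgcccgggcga
PSMG4 (chr6:3258904-3258933, + strand): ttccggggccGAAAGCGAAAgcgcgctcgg
PSMA4 (chr15:78540155-78540184, + strand): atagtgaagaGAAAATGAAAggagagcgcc
PSMB4 (chr1:151399495-151399524, + strand): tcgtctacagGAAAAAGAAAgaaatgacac

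In every library PSMB8 and PSMB9 were measured far below their constitutive counterparts PSMB5 and PSMB6, while PSMB7, the counterpart of PSMB10, was almost unmeasured. Because a 3' library reads a short tag near the end of each transcript, counts do not grow with transcript length, and levels of different genes are compared here in CPM without division by length. Such comparisons are of counted reads and need not hold for RNA molecules. PSMB7, needed in every constitutive particle, had 21 counts over the 6 libraries, against 11640 for PSMB5. PSMB8 (chromosome 6, 32840717 to 32844703, GRCh38) encodes the immune subunit with chymotrypsin-like activity. It measured 12.1, 16.9 and 16.6 CPM with IL-33 and 10, 14.2 and 12.5 CPM in Control. PSMB5 (chromosome 14, 23016543 to 23035230), which holds the same place in the constitutive particle, measured 229, 227 and 204 CPM with IL-33 and 214, 218 and 265 CPM in Control. For both genes the groups overlapped.

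PSMB9 (chromosome 6, 32844136 to 32859585), the immune counterpart of the caspase-like subunit, was the least abundant of the 46 proteasome genes tested, at 5.75, 7.32 and 3.89 CPM with IL-33 and 5.06, 6.61 and 9.05 CPM in Control. PSMB6 (chromosome 17, 4796144 to 4798503), the caspase-like subunit, measured 327, 336 and 332 CPM with IL-33 and 313, 342 and 369 CPM in Control. The highest PSMB9 level, in Control 3, was still far below the lowest PSMB6 level. PSMB10 (chromosome 16, 67934502 to 67937087), the immune counterpart of the trypsin-like subunit, measured 22.9, 24.8 and 23.5 CPM with IL-33 and 18.3, 22.6 and 22.6 CPM in Control. All IL-33 libraries lay above all Control libraries in PSMB10, by a margin smaller than the spread within either group.

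None of the immune subunits passed the test between IL-33 and Control. The log2 fold change was 0.32 ± 0.25 (SE) for PSMB8, with a 95% interval from -0.21 to 0.84, and 0.17 ± 0.19 for PSMB10, with an interval from -0.23 to 0.57. It was -0.27 ± 0.37 for PSMB9, with an interval from -1.05 to 0.52, and -0.04 without Control 3. The adjusted p was 0.999 for each (edgeR, quasi-likelihood test, Benjamini-Hochberg over all 12125 genes tested). In bulk RNA, fewer cells that express a gene and less of its RNA per cell cannot be told apart. With 318 counts over the 6 libraries, PSMB9 had the widest interval of all the tested proteasome genes, and a difference of -1 log2 unit lay inside it. PSMB8 and PSMB9 overlap each other on opposite strands, and PSMB9 also overlaps TAP1 (525 counts over the 6 libraries). The strand setting of the counting is not stated, so reads from these overlaps cannot be assigned to one gene with certainty. Both overlaps lie away from the 3' ends of PSMB8 (32840717) and PSMB9 (32859585), near which these libraries read. The 3' end of TAP1 (32845209) lies inside the annotated span of PSMB9. PSMB10 overlaps the gene AC040162.1 on its own strand and across its 3' end, where strand cannot separate the reads.

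The ratio of an immune to its constitutive subunit within a library does not depend on how libraries are scaled. PSMB8 counts were 5.31%, 7.43% and 8.15% of PSMB5 counts with IL-33 and 4.69%, 6.49% and 4.71% in Control. The log2 ratio differed by 0.39 (IL-33 minus Control), with an exact permutation p of 0.2 (two-sided, n = 3 each) and 0.6 after Benjamini-Hochberg adjustment over the 3 planned ratios. It was -3.86 ± 0.32 with IL-33 and -4.25 ± 0.27 in Control (SD), so that IL-33 1 lay within the Control range.

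PSMB9 counts were 1.76%, 2.18% and 1.17% of PSMB6 counts with IL-33 and 1.62%, 1.93% and 2.45% in Control. That log2 ratio differed by -0.26, with an exact permutation p of 0.5 and 0.75 after adjustment (two-sided, n = 3 each). Without Control 3 the difference was -0.10. With 3 libraries against 3 no exact p can fall under 0.1.

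The third planned ratio could not be read, because PSMB7 was almost unmeasured. PSMB7 (chromosome 9, 124353466 to 124415444) encodes the trypsin-like subunit and is needed in every constitutive particle, yet it had 1, 4 and 4 counts with IL-33 and 11, 1 and 0 in Control. The 6 other constitutive beta subunits had between 5884 counts (PSMB3) and 17359 counts (PSMB6) over the same libraries. No other gene of GENCODE release 29 overlaps PSMB7, and 1 pseudogene is named after it. Why the table holds so few PSMB7 reads was not tested, and the annotation behind the counts is not given in the sources used here. The planned log2 ratio of PSMB10 to PSMB7 differed by -0.16 (exact permutation p = 1, two-sided, n = 3 each, and 1 after adjustment). Set against PSMB6 instead, a choice made after the data were seen, PSMB10 counts were 7.01%, 7.38% and 7.07% with IL-33 and 5.83%, 6.61% and 6.14% in Control. All IL-33 libraries lay above all Control libraries in this ratio, with a log2 difference of 0.21 and an exact permutation p of 0.1 (two-sided, n = 3 each), the smallest that the design allows. PSMB6 is the counterpart of PSMB9 and not of PSMB10, and the separation depended on this choice. Against PSMB5 the groups overlapped. IL-33 1 had 215 PSMB10 counts to 2147 of PSMB5, a smaller share than Control 2 with 188 to 1817.

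**Figure D1:**
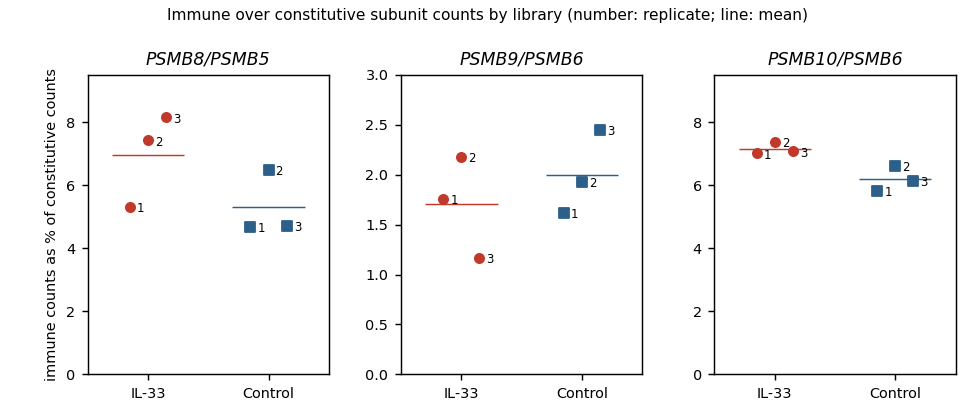
Counts of an immune beta subunit as a percentage of the counts of a constitutive one (vertical axis, different range in the middle panel), with 3 IL-33 libraries left of 3 Control libraries in each panel, labelled by replicate number, and a line at the group mean. The groups overlap for PSMB8 over PSMB5 and for PSMB9 over PSMB6, and do not for PSMB10 over PSMB6, where IL-33 lies between 7.01% and 7.38% and Control between 5.83% and 6.61%. PSMB10 over PSMB6 was not planned. It was chosen after the data were seen, in place of PSMB10 over PSMB7, and PSMB6 is not the counterpart of PSMB10.

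Genes that act with the immune subunits did not pass either. Of 9 listed genes of the interferon route and of class I peptide supply, 8 were tested, 0 were called and 7 lay above 0. Their median log2 fold change was 0.13, against -0.01 over all genes tested. Without Control 3, which had the lowest level of this list, 5 of the 8 lay above 0 and the median was 0.06. IRF1, a transcription factor that drives the immune subunit genes, measured 24.2, 29.7 and 20.7 CPM with IL-33 and 21.6, 17 and 24.6 CPM in Control, with overlapping groups and a log2 fold change of 0.25 ± 0.21. The trimming peptidase gene ERAP1 had 1.11 ± 0.66 at 3.31 ± 1.13 CPM with IL-33 and 1.46 ± 1.14 CPM in Control (SD, n = 3 each). It had 1 count in Control 3 (0.181 CPM), against 2.38 and 1.8 CPM in Controls 1 and 2. NLRC5, an activator of class I genes, had too few counts to be tested. The highest IRF1 level was in IL-33 2, the library with the highest PSMB8 and PSMB10 levels, while PSMB9 was highest in Control 3.

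Across the whole set none of the proteasome genes tested was called between the groups, and most were closely measured. The 49 genes took 0.808%, 0.822% and 0.799% of all counts with IL-33 and 0.793%, 0.792% and 0.843% in Control. Of the 49 genes, 46 passed the filter on low counts. The genes that did not were PSMB7, the testis-specific alpha subunit gene PSMA8 with 0 counts in all libraries, and the thymic beta subunit gene PSMB11 with 3 counts, all in IL-33 2. None of the 46 was called at an adjusted p of 0.05 (edgeR's quasi-likelihood test), nor was any of the 12125 genes tested (0%), and the smallest adjusted p among the 46 was 0.999. DESeq2 and limma-voom called 0 of the 46 too, and 1 and 0 of all genes. Of the 46, 20 had a log2 fold change above 0 (43.5%, against 48.9% of all genes tested and 47.3% of those at 10 CPM or more) and the median was -0.01, as over all genes.

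At an unadjusted p under 0.05 stood 1 of the 46 (2.17%, against 2.43% of all genes). It was PSMD10, lower with IL-33 (against 0.981% of all genes in that direction), and 0 were higher (against 1.45%). The libraries of the groups did not overlap, with IL-33 higher, in PSMB10, PSMC2, PSMD5 and PSMD9 (8.7%, against 4.54% of all genes). With IL-33 lower they did not overlap in PSMD3 and PSMD10 (4.35%, against 3.51%). For 37 of the 46 the 95% interval ran no further than -0.5 to 0.5, or 80.4%, against 39.8% of all genes tested and 57.9% of genes at 10 CPM or more. Every one of the 46 but PSMB9 had its interval within -1 to 1, against 73.4% of all genes tested. Among genes at 10 CPM or more 8072 of 8331 did, a like share. The median standard error was 0.12 for the 46, 0.21 for all genes tested and 0.17 for genes at 10 CPM or more.

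**Figure D2:**
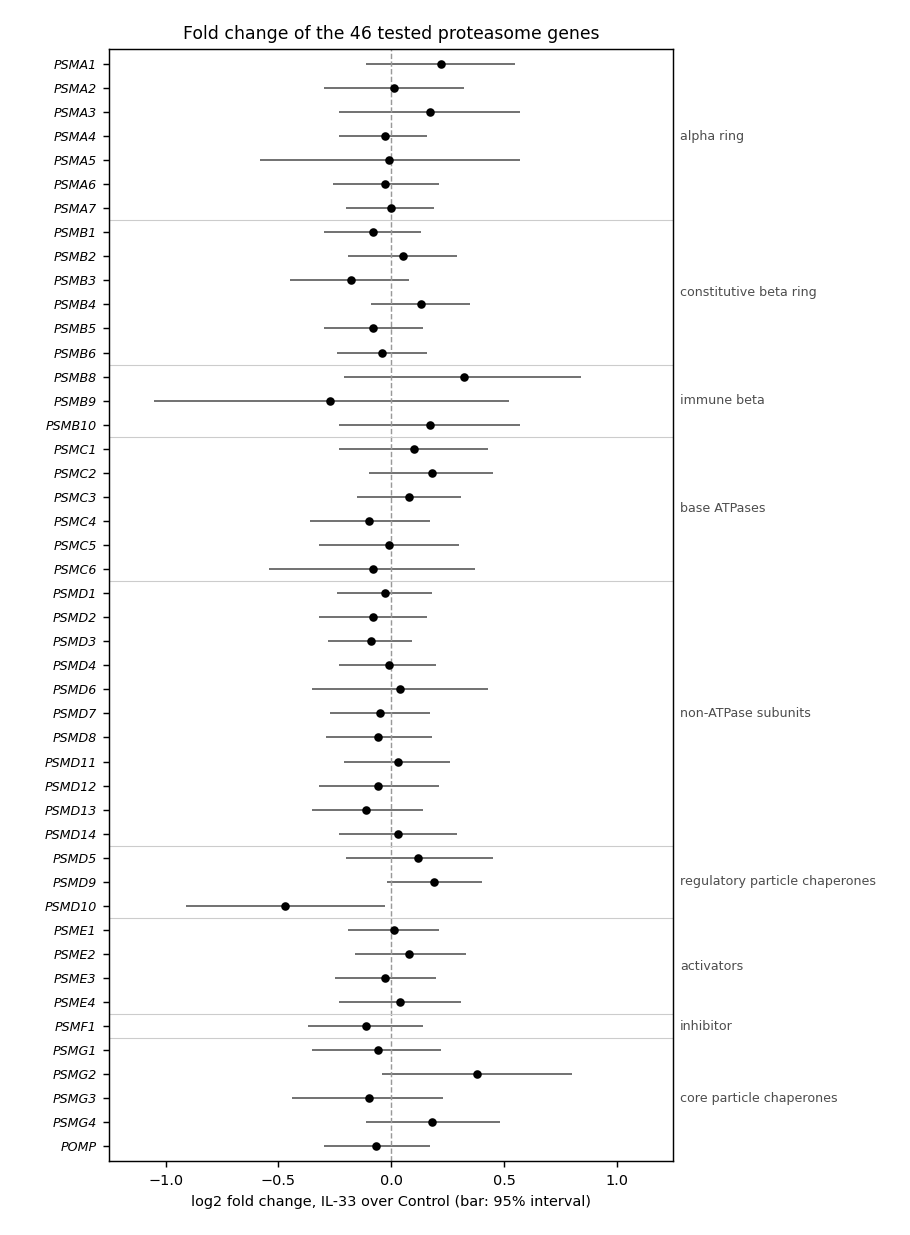
Log2 fold change of each tested proteasome gene, IL-33 over Control (horizontal axis, point), with its 95% interval from edgeR's quasi-likelihood fit (bar), in rows ordered by role. All intervals but that of PSMD10 (-0.91 to -0.03) span 0, and the immune beta subunits have wider intervals than the constitutive beta subunits.

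The chaperones of the regulatory particle held the gene with the smallest p. PSMD10, also called gankyrin, binds an ATPase subunit while the base is assembled. It measured 15.9, 14.2 and 17.8 CPM with IL-33 and 24.8, 19.7 and 21.4 CPM in Control, every IL-33 library below every Control library. The log2 fold change was -0.47 ± 0.21 (SE, n = 3 each) with an unadjusted p of 0.0392 and an adjusted p of 0.999 by edgeR. It ran from -0.55 to -0.36 with a library left out, and 3 pseudogenes are named after this gene. The unadjusted p by edgeR was 0.0771 without IL-33 1, 0.12 without IL-33 2 and 0.157 without Control 1. It was 0.0393, 0.0363 and 0.0354 without IL-33 3, Control 2 and Control 3, and 0.054 with the replicate number as a block. PSMD9, a second chaperone of the base, measured 180.4, 178 and 174 CPM with IL-33 and 164, 161 and 142 CPM in Control, with a log2 fold change of 0.19 ± 0.10. PSMD9 overlaps WDR66 on the same strand (1900 counts in all). The third, PSMD5, had 0.12 ± 0.16 (0.07 without Control 3), so chaperones of the same particle lay on both sides of 0.

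Among the chaperones of the core particle, PSMG2, which pairs with PSMG1 to start the alpha ring, measured 28.3, 28.8 and 35.5 CPM with IL-33 and 25, 28.4 and 17.4 CPM in Control. Its log2 fold change of 0.38 ± 0.20 was the largest above 0 among the 46, and it was 0.21 without Control 3. Its partner PSMG1 had -0.06 ± 0.14. PSMG3 and PSMG4, which form the other alpha ring chaperone, had -0.10 ± 0.16 and 0.18 ± 0.14, and 0.10 and 0.14 without Control 3. POMP, which matures the core and was the most abundant chaperone gene of the core at 185 CPM over the 6 libraries, had -0.07 ± 0.11, and 0.08 without Control 3.

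The alpha ring, which gates the entry to the core, had 7 tested genes with a median log2 fold change of -0.00 and 0 called. PSMA7 was the most abundant proteasome gene, at 1351, 1293 and 1275 CPM with IL-33 and 1229.6, 1276 and 1427 CPM in Control, and its 95% interval of -0.20 to 0.19 was among the narrowest of the set. PSMA5 was the least abundant of the ring, at 32, 45.1 and 44.2 CPM with IL-33 and 43.4, 54.3 and 23 CPM in Control. Although each alpha subunit is present in equal number in the particle, mean levels of these genes spanned 32.4-fold. PSMA1 had the largest value above 0 in the ring, 0.22 ± 0.16, and its lowest library was Control 3 at 47.2 CPM. Without that library PSMA1 had 0.04.

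Constitutive beta subunits spanned a narrower range, 2.98-fold from PSMB3 to PSMB6 among the 6 that were tested. Their median log2 fold change was -0.06, with 2 of the 6 above 0, and all 6 intervals lay within -0.5 to 0.5. Without Control 3 the median was 0.01 and 5 of the 6 lay above 0. PSMB3, a subunit without catalytic activity, was the lowest of them against Control, at 98.7, 94.9 and 124 CPM with IL-33 and 136, 116 and 107 CPM in Control (log2 fold change -0.18 ± 0.13). PSMB4, another subunit without catalytic activity, measured 239, 277 and 231 CPM with IL-33 and 238, 239 and 206 CPM in Control (0.13 ± 0.10, and 0.06 without Control 3).

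The 6 ATPases of the base, which thread substrates into the core, had a median of 0.03 and 0 called. PSMC2 measured 74.2, 70.4 and 69.1 CPM with IL-33 and 67.2, 67.1 and 54.3 CPM in Control, with no overlap between the groups and a log2 fold change of 0.18 ± 0.13, which was 0.08 without Control 3. PSMC3, the most abundant at 225 CPM over the 6 libraries, had 0.08 ± 0.11, and PSMC6, the least abundant at 28.3 CPM, had -0.08 ± 0.22. Without Control 3 these were 0.19 and -0.32. PSMC1, with 13 named pseudogenes that could share its reads, had 0.10 ± 0.15.

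Of the 11 non-ATPase subunits 8 had a log2 fold change below 0, the 11 values ran from -0.11 to 0.04, and all 11 intervals lay within -0.5 to 0.5. Without Control 3 the balance turned, with 5 below 0, 6 above, and a median of 0.03 against -0.05 with all libraries. PSMD2, a scaffold of the base, was the most abundant at 593, 634 and 569 CPM with IL-33 and 571, 558 and 776 CPM in Control. PSMD3 of the lid measured 408, 430.4 and 405 CPM with IL-33 and 441, 431 and 455 CPM in Control, a small step without overlap (log2 fold change -0.09 ± 0.09). The ubiquitin receptor PSMD4 had -0.01 ± 0.10 and the deubiquitinase PSMD14 0.03 ± 0.12. PSMD6 was the least abundant, at 43 CPM over the 6 libraries, with 0.04 ± 0.19, and -0.15 without Control 3.

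**Figure D3:**
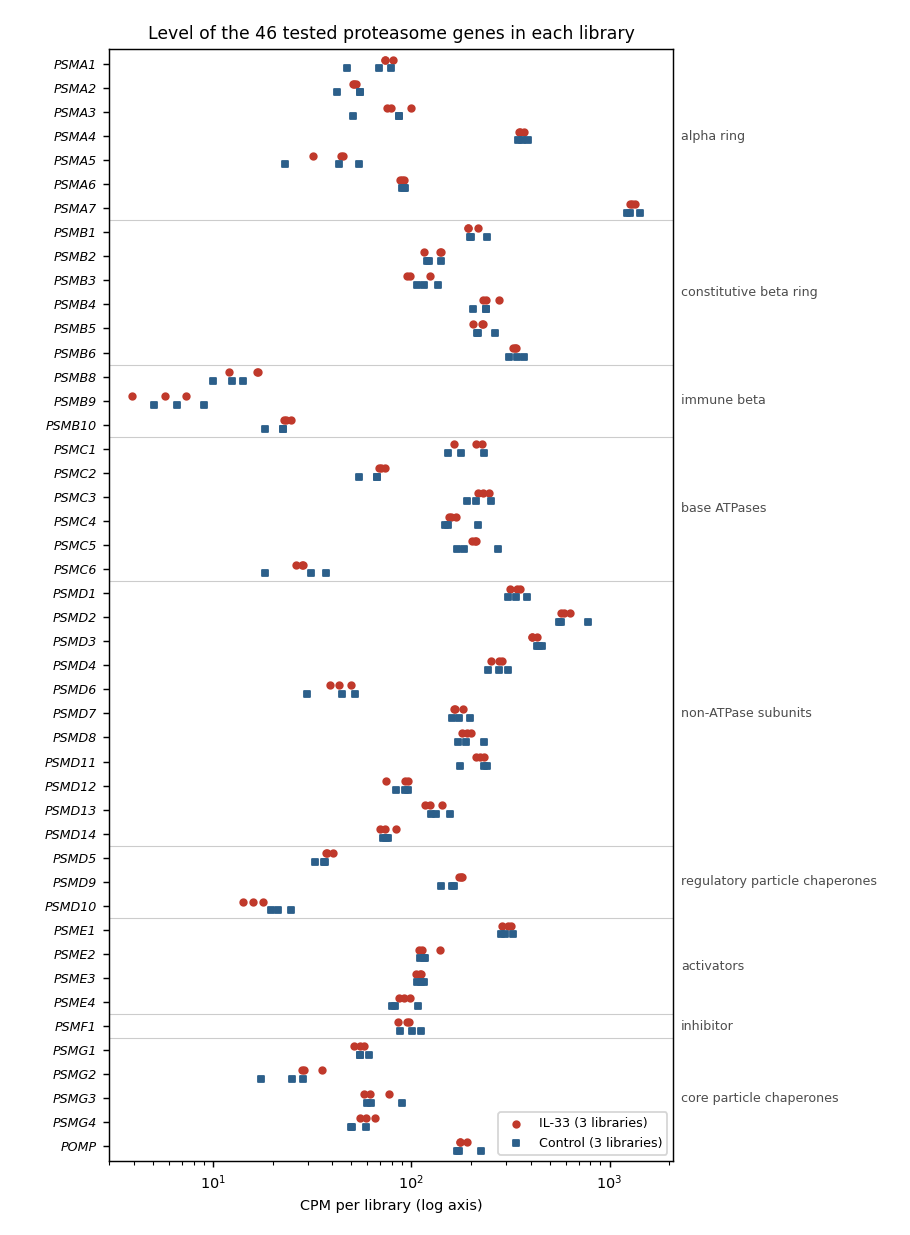
CPM per library (horizontal axis, log scale) of the 46 tested proteasome genes, with 3 IL-33 libraries (circles) above 3 Control libraries (squares) in each row and rows ordered by role. Levels differ far more between subunits than between groups, from 6.28 CPM for PSMB9 to 1309 CPM for PSMA7 on average, and Control 3 is the outlying square in rows such as PSMA5, PSMC5 and PSMD2.

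The caps and the inhibitor did not pass either. PSME1 and PSME2, which form the interferon-inducible cap, measured 319, 306 and 287 CPM and 139, 114 and 110.1 CPM with IL-33, and 296, 283 and 326 CPM and 110.3, 116 and 117 CPM in Control. Their log2 fold changes were 0.01 ± 0.10 and 0.08 ± 0.12. PSME2 counts were 43.4%, 37.3% and 38.3% of PSME1 counts with IL-33 and 37.2%, 40.8% and 35.8% in Control. PSME3, the nuclear cap, had -0.03 ± 0.11 and PSME4, a large cap linked to acetylated histones, had 0.04 ± 0.13, and 0.19 without Control 3. PSMF1, the inhibitor, measured 95.1, 85.7 and 97.3 CPM with IL-33 and 87.7, 101 and 112 CPM in Control (log2 fold change -0.11 ± 0.12, and -0.03 without Control 3).

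Other genes of the pathway were likewise not called, with 0 past the threshold in either direction in each of the lists that follow. The 16 proteasome-associated factors, such as the ubiquitin receptor ADRM1 and the deubiquitinase USP14, had a median log2 fold change of 0.01, 8 above 0 and 8 below. The smallest p among them were those of UBQLN2 (0.27 ± 0.27) and RAD23B (-0.08 ± 0.09), which encode shuttles for tagged proteins. Of the NFE2L1 route 10 of 12 genes were tested, with a median of 0.01 and 6 above 0, and a median of -0.02 with 4 above 0 without Control 3. NFE2L1 itself measured 57.5, 56 and 63.8 CPM with IL-33 and 60.6, 60 and 53.9 CPM in Control (log2 fold change 0.02 ± 0.13), while DDI2, the protease that activates it, had too few counts to be tested. The smallest p in this list were those of OGT (0.24 ± 0.17), an enzyme that glycosylates proteins, and NGLY1 (-0.29 ± 0.23), the enzyme that removes sugars from NFE2L1. The 6 ubiquitin genes and activating enzymes had a median of -0.09 with 5 below 0, against a median of 0.06 with 1 below 0 when Control 3 was left out, and the smallest p were those of the activating enzyme UBA6 (-0.20 ± 0.12) and the ubiquitin gene UBB (-0.09 ± 0.10).

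Control 3 differed from Controls 1 and 2 upward in some proteasome genes and downward in others, as it did over all genes. Its deviation from their mean had a median of 0.08 log2 units over the 46 genes but ranged from -1.07 to 0.62, with an SD of 0.41 (0.45 over genes at 10 CPM or more). Below -0.5 lay PSMA5 (-1.07), PSMC6 (-0.90), PSMA3 (-0.77), PSMD6 (-0.70), PSMA1 (-0.64) and PSMG2 (-0.61). Above 0.5 lay PSMC5 (0.62), PSMB9 (0.62), PSMG3 (0.55) and PSMC4 (0.51). These 6 and 4 of 46 stand beside 1035 and 582 of the 8331 genes at 10 CPM or more, a like share. The 6 low genes and the high ones thus included ATPases of the same base ring on both sides.

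The GC content of the last 500 transcript bases moved with this deviation. It was 32.8% to 37.6% in the 6 low genes, and 51.8% to 55% in PSMB9, PSMC5 and PSMG3, with PSMC4 at 49%. Across the 46 genes Spearman's rho was 0.54 and Pearson's r 0.51, as a description, since the genes share a library and its depth. Across 8051 genes at 10 CPM or more with an annotated transcript rho was 0.37. POMP and PSME4 went against it, with 25.6% and 34% GC and deviations of 0.40 and 0.41. Each library set against the mean of the others gave a rho over the 46 genes of 0.48 for Control 3. For Controls 1 and 2 rho was -0.44 and -0.40, and for IL-33 1, 2 and 3 it was 0.26, -0.28 and -0.31. These values depend on each other, since each library enters the mean that the others are set against. Whether GC content has a part in the deviation was not tested.

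**Figure D4:**
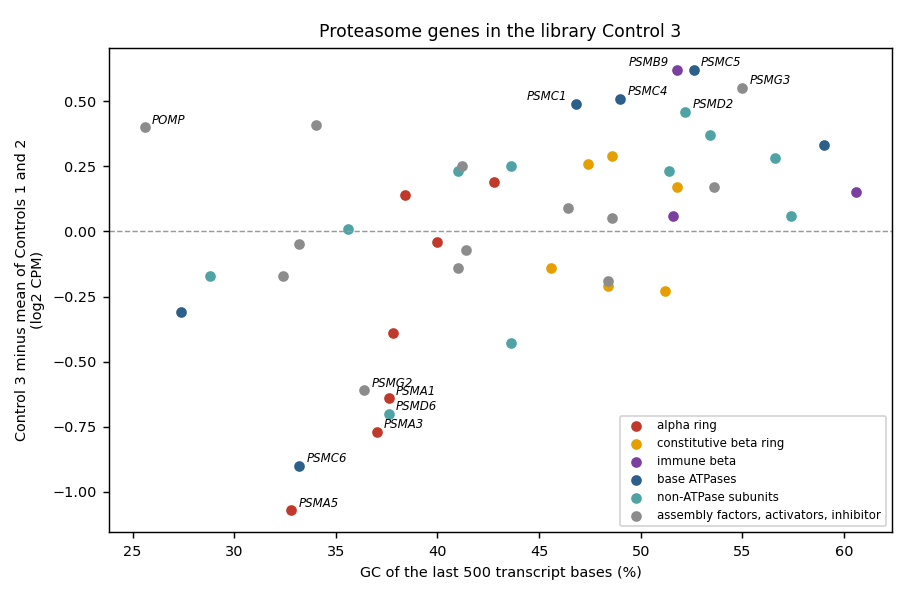
Control 3 minus the mean of Controls 1 and 2 in log2 CPM (vertical axis) against the GC content of the last 500 bases of the longest coding transcript (horizontal axis, percent) for the 46 tested genes, coloured by role. The 6 genes below -0.5 lie between 32.8% and 37.6% GC, and POMP at 25.6% GC lies at 0.40.

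Without Control 3 no proteasome gene was called either, and the smallest adjusted p was 0.6 (edgeR's quasi-likelihood test). The median log2 fold change over the 46 was then 0.04 and 30 lay above 0. At an unadjusted p under 0.05 there were 5 of 46 (10.9%, against 6.3% of 12611 genes tested), namely the ATPases PSMC1 (0.28 ± 0.10), PSMC3 (0.19 ± 0.09) and PSMC5 (0.22 ± 0.09) above 0, and PSMB3 (-0.26 ± 0.11) and PSMD10 (-0.49 ± 0.23) below. The median of the ATPases was 0.14, against 0.03 with all libraries. PSMC5 measured 209, 202 and 211 CPM with IL-33, above Controls 1 and 2 at 171 and 185 CPM and below Control 3 at 273 CPM. PSMC1 measured 227, 211 and 165 CPM with IL-33 and 153, 179 and 233 CPM in Controls 1, 2 and 3, so that Control 3 was the highest library there too.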

How the data were processed

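RNA from 3 IL-33 and 3 Control libraries of HMC3 was, per the labels' protocols, extracted with TRIZOL and made into Lexogen QuantSeq 3' FWD libraries. The authors deposited raw read counts per gene symbol. The submitters' processing notes list hg38, STAR 2.7.5a, HTSeq 0.6.1 and edgeR, without roles; for annotation, strand setting and filters, each is not given in the sources used here. Reads shared with pseudogenes, named for 12 of the 49 genes, can be lost or split.

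Of 27470 rows 1 held no values. Genes were filtered with filterByExpr (count minimum 10, total minimum 15), scaled by TMM and tested with edgeR 4.0.16 in R 4.3.3 (quasi-likelihood, robust, group as the sole term, Benjamini-Hochberg over 12125 genes, threshold 0.05). Log-scale levels used a prior count of 2 and ratios 0.5 added to each count. DESeq2 1.42.0 and limma-voom (limma 3.58.1) were alternatives. The fit was tested on simulated data. Libraries of a group differed by a chi-square of 5.56 to 15.8 per degree of freedom, so none were merged. Floors of 3 counts and intervals cover counting error or spread between libraries only. Positions and 3' GC came from GENCODE release 29 (GRCh38), matched by symbol for 49 and 46 genes, and figures from matplotlib 3.10.9.

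The genes and lists were chosen with earlier results of these data known. Named were the immune subunits and counterparts, PSME1 to PSME4, PSMF1, the 4 smallest p in each direction at 10 CPM or more, and the highest and lowest level of each role. In each pathway list the 2 genes of smallest p were named, except 1 that is not reported here. The remaining named genes were picked with their values in view.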

Additional observations from a re-analysis of the deposited data

How the results depend on the processing

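The count of 0 called proteasome genes was the same under all 13 alternatives: each library left out, limma-voom, DESeq2, its size factors within edgeR, the replicate block, scaling by totals, no filter, and a filter at 10 CPM. Over all genes, 0 called became 3 without the low-count filter (KIRREL3-AS2, MALAT1 and NEAT1), 1 with DESeq2 (KIRREL3-AS2) and, with a library left out, 0 to 6, the 6 being without Control 3. The log2 ratio of PSMB10 to PSMB7 was -0.16, but 0.28 with 2 counts added and 0.21 against PSMB6, and ran from -1.32 to 0.66 with a library left out; PSMB7 counts lie at the limit of detection. Signs with each library left out were followed only for the genes named by rule. Among these, log2 fold changes near 0 changed sign in PSMA7 (-0.05 to 0.06), PSMB5 (-0.13 to 0.03), PSMB6 (-0.10 to 0.02), PSMC3 (-0.01 to 0.19) and PSMC6 (-0.32 to 0.14). They also did in PSMD2 (-0.17 to 0.08), PSMD6 (-0.15 to 0.22), PSME1 (-0.03 to 0.07), PSME2 (-0.03 to 0.15), PSME4 (-0.04 to 0.19) and POMP (-0.14 to 0.08). Genes outside that rule changed sign too. Without Control 3, for example, PSMA3 went from 0.17 to -0.04 and PSMC5 from -0.01 to 0.22. The cause was not tested. The ratios of PSMB8 to PSMB5 (0.26 to 0.57) and of PSMB9 to PSMB6 (-0.45 to -0.01) kept their sign. With the replicate number as a block 0 genes were called, 213 at an unadjusted p under 0.05 against 295, 0 of them proteasome genes. The labels do not say that the numbers pair libraries, and correlations of same-numbered deviations were -0.086, 0.027 and -0.136.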

Other observations

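Antisense partners of proteasome genes, left out of the set by its rule, were also counted. PSMA3-AS1, which overlaps PSMA3 on the opposite strand, measured 63.5, 64.2 and 68.8 CPM with IL-33 and 70.1, 60.5 and 71.3 CPM in Control, with overlapping groups. In Control 3, PSMA3 stood at -0.77 log2 units from Controls 1 and 2 and PSMA3-AS1 at 0.13. PSMB8-AS1, which overlaps PSMB8 and PSMB9, had 17, 28 and 6 counts with IL-33 and 8, 5 and 5 in Control, too few to be tested. PSMD5-AS1, PSMD6-AS2 and PSMG3-AS1 had 506, 58 and 23 counts over the 6 libraries.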
